A study of Mus musculus with 2 samples.

Results

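The carbonic anhydrase family was examined in CT26 cells, a mouse colon cancer line, with and without knockdown of Setdb1, a histone lysine methyltransferase that silences genes. The members are the 10 genes Car2, Car4, Car5b, Car6, Car7, Car8, Car9, Car12, Car13 and Car14, out of 54680 loci in the deposited table. They were chosen by gene family and selected on the knockdown-over-control ratios of these same libraries, since the family holds Car9 and Car6, which lie near the ends of the range of ratios. The ratios below are therefore a description with no test.

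Carbonic anhydrases are zinc enzymes that convert carbon dioxide and water into bicarbonate and a proton, and back. The isozymes differ mainly in where they work: in the cytosol, in mitochondria, at the outer cell surface, or outside the cell after secretion. Car1, Car2 and Car4 are known for high expression in normal colon epithelium, and CAR9 and CAR12 are known in tumours as surface enzymes, of which CAR9 is a standard marker of low oxygen.

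The shSetdb1 library came from CT26 cells infected with a lentivirus that carried a short hairpin RNA against Setdb1. The shCtrl library came from wild-type CT26 cells infected with the empty knockdown vector, and whether that vector expresses any hairpin is not stated. Both cultures were grown in RPMI medium with serum for 6 days, and per the sample title the knockdown cells had differentiated by then. There was 1 library in each group and no replicate, so every difference is one between these 2 libraries and not between the conditions. In bulk RNA, fewer cells that express a gene and less of its RNA per cell cannot be told apart.

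The libraries held 18421604 reads (shCtrl) and 19045830 reads (shSetdb1). Levels are given in FPKM, fragments relative to gene length and to sequencing depth, which can be compared between genes. Ratios are log2 of (FPKM + 1), shSetdb1 over shCtrl, and understate the change of genes at low levels. Read ratios are relative to each library's own total. Their 95% Clopper-Pearson intervals cover counting error only, and not the spread between cultures or library preparations. The intervals treat each read as independent, so they are too narrow where reads are PCR copies of one molecule. Setdb1 itself went from 1340 to 317 reads, a read ratio of 0.229 (0.202 to 0.259), lower in the library labelled as the knockdown.

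The labelled cell type was checked against its markers. Of 12 colon epithelium markers, 3 reached 1 FPKM, and all 3 were at least 2-fold higher in the shSetdb1 library, beside 6.81% of all loci at 1 FPKM. They were Krt18 (37.8 and 90.0 FPKM), Krt19 (0.0288 and 1.525 FPKM) and Krt20 (5.07 and 35.6 FPKM). Krt19, with 1 and 53 reads, passed the filter through the shSetdb1 library alone, which fixed its direction. The defining epithelial genes Epcam and Cdh1 had 0 reads in both libraries. Fibroblast markers reached 1 FPKM for 4 of 7 genes, 2 higher and 2 lower in the shSetdb1 library. The summed level of the list, carried mainly by the collagen genes Col1a2 (139.6 and 94.1 FPKM) and Col1a1 (3951 and 2950 reads), was 186 FPKM in the shCtrl library and 135 FPKM in the shSetdb1 library. Pdgfra (0.501 and 1.77 FPKM) was higher but passed the filter through the shSetdb1 library alone, which fixed its direction. Pdgfrb (1381 and 1493 reads) had a read ratio of 1.05 (0.971 to 1.13). Blood and endothelial markers reached 1 FPKM for 2 of 8 genes, Cd68 (10.4 and 100.2 FPKM) and Hba-a1 (0.329 and 1.12 FPKM). The direction of Hba-a1 was likewise fixed, as it passed the filter through the shSetdb1 library alone. Of that list, Cd3e, Hbb-bs, Pecam1 and Cdh5 had 0 reads in both libraries, and Ptprc, the pan-leukocyte marker, had 0 and 4 reads. The part of these markers in the results below was not tested.

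Sequences upstream of the start sites of the 4 members discussed most are shown first, because the ratios of these members run from the lowest to the highest of the family. They are from RefSeq (GRCm38) and read 5′ to 3′ on the strand of the gene. RefSeq promoters were found for 7 of the 10 members, with 9 start sites, and not for Car2, Car8 and Car13. The capitals mark the core of the hypoxia response element, ACGTG or GCGTG, on either strand. Bases that GENCODE M21 places in a transcript of the gene are left out, apart from 30 bases around the element of Car9 and of Car6.
Car9, chr4:43506776-43506965, plus strand: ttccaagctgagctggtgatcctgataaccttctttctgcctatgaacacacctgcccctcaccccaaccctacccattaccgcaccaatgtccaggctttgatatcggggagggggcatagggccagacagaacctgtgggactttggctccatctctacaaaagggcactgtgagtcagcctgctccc
Car9, chr4:43506996-43507025, plus strand, ending at the base before the RefSeq start: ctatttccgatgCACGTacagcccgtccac
Car6, chr4:150201333-150201385, minus strand: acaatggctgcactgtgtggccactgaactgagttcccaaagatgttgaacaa
Car6, chr4:150201267-150201296, minus strand: gaggaggtgaggCACGTGcacaggcaccaa
Car12, chr9:66713436-66713685, plus strand: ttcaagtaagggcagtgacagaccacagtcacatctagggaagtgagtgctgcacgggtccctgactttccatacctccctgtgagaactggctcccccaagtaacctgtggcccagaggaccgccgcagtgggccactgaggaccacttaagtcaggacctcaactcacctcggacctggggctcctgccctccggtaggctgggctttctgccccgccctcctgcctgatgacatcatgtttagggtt
Car5b, chrX:164028011-164028260, minus strand: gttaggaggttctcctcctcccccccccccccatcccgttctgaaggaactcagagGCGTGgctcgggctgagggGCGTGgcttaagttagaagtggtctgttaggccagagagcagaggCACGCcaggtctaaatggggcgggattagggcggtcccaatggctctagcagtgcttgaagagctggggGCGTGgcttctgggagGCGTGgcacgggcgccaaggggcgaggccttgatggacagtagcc

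In the 250 bases upstream of its RefSeq start, Car9 held 1 match to the core, whose first base lies 18 bases before the start. Car6 held the palindrome CACGTG, which matches on both strands and is also the E-box. Car5b held 5 matches and Car12 held 0. Of all 32851 RefSeq promoters, 38.6% held at least 1 match in the same 250 bases, so a match is common. That share is for 1 or more matches and is not a background for the 5 of Car5b. Car4 held 0 matches, Car14 held 1, and the 3 start sites of Car7 held 2, 0 and 1. A match is a description of letters and not a site of binding. The GC content of these 250 bases was 56.4% for Car9, 52.4% for Car6, 59.2% for Car12 and 63.6% for Car5b, against a median of 52.4% and quartiles of 45.2% and 61.2% over all promoters. CpG pairs numbered 5, 3, 6 and 12 in the same order, against a median of 6 and quartiles of 2 and 16.

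Of the 10 members, 5 reached 1 FPKM in at least 1 library: Car5b, Car6, Car9, Car12 and Car13. Car9 and Car12 passed this limit through the shSetdb1 library alone. Car7 and Car14 had reads but stayed under 1 FPKM, and Car2, Car4 and Car8 had no read in either library. Of the 5, 1 was at least 2-fold higher in the shSetdb1 library (Car9) and 1 at least 2-fold lower (Car6). Across all 10671 loci at 1 FPKM, 6.81% were higher in the shSetdb1 library by 2-fold or more and 4.85% were lower by as much. The members were picked on this contrast, so nothing is read from their count. The median ratio of the 5 was 0.75, beside -0.00039 for all loci, whose quartiles were -0.36 and 0.38. Over all 10 members, with no filter, the median was 0.0600.

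**Figure D1:**
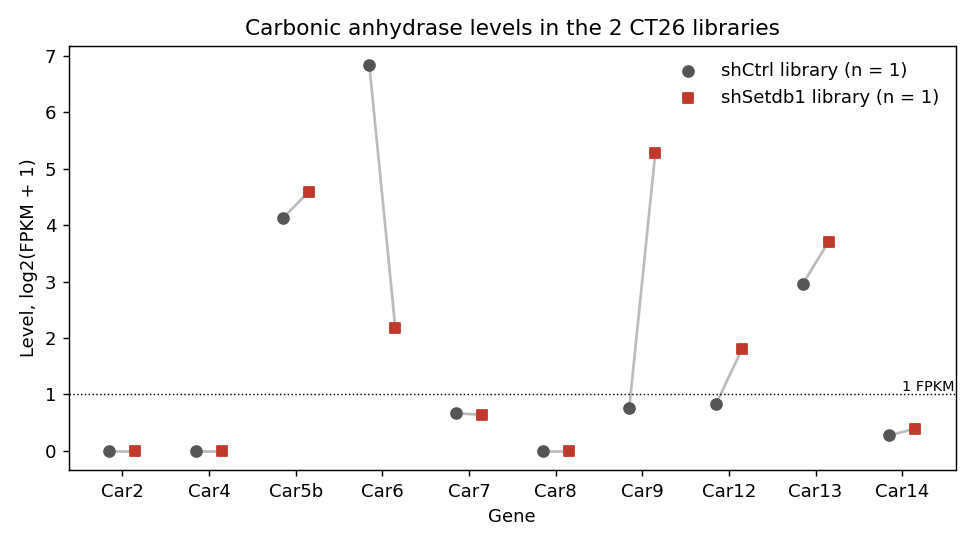
Level of each listed carbonic anhydrase as log2(FPKM + 1), with 1 point for each library and a grey line between the 2 libraries. Car6 goes from 113 to 3.53 FPKM and Car9 from 0.695 to 37.7 FPKM, and the order of the members changes between the libraries.

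CAR6 is the secreted isozyme, known from saliva and milk. Car6 (ENSMUSG00000028972) is a gene of chromosome 4 (150187015 to 150201332 in GRCm38, minus strand) with 8 exons in its longest transcript. It had 3839 reads (113 FPKM) in the shCtrl library and 120 reads (3.53 FPKM) in the shSetdb1 library. In the shCtrl library it was the most abundant carbonic anhydrase and stood at rank 453 among 9365 protein-coding genes. In the shSetdb1 library its rank was 6650. Its log2 ratio of -4.65 was the second lowest of all 10671 loci, after a processed pseudogene, and its reads were 33.1-fold lower. Of 10 salivary gland markers, 1 reached 1 FPKM, in the shSetdb1 library alone: Aqp5, a water channel (0.945 and 1.25 FPKM). The read ratio of Aqp5 was 1.28 (0.86 to 1.92), so a difference was not detectable at this depth. The summed levels of the list, mostly Aqp5, were 1.002 FPKM in the shCtrl library and 1.39 FPKM in the shSetdb1 library. The secretory genes Bpifa2, Dcpp1, Dcpp2, Smgc and Prol1 had 0 reads in both libraries.

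Membrane-bound members face the outside of the cell. CAR9 is a transmembrane enzyme with an extracellular catalytic domain and a proteoglycan-like domain. Car9 (ENSMUSG00000028463) is on the same chromosome (43506966 to 43513729, plus strand) with 11 exons in its longest transcript. It had 30 reads (0.695 FPKM) in the shCtrl library and 1626 reads (37.7 FPKM) in the shSetdb1 library, and its log2 ratio was 4.51. The reads differed 52.4-fold (36.6 to 77.96). Its rank by level among protein-coding genes was 9141 in the shCtrl library and 1591 in the shSetdb1 library. Only 3 of the 10671 loci had a higher ratio. The antisense locus Gm12454 shares 214 exonic bases (9.29% of those of Car9) and had 0 and 2 reads.

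CAR12 is a further transmembrane enzyme with an extracellular catalytic domain. Car12 (ENSMUSG00000032373, chromosome 9, 66713686 to 66766845) had 110 reads (0.773 FPKM) in the shCtrl library and 354 reads (2.49 FPKM) in the shSetdb1 library. Its read ratio was 3.11 (2.51 to 3.89), while its log2 ratio on the FPKM + 1 scale was 0.98, just under the 2-fold limit. With a pseudocount of 0.1 its log2 ratio was 1.57, past that limit. In the shCtrl library Car9 and Car12 were at similar FPKM levels, with a ratio of Car12 to Car9 of 1.11, and in the shSetdb1 library the FPKM of Car9 was 15.2 times that of Car12.

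Among the other surface members, Car14 (ENSMUSG00000038526), a transmembrane enzyme, had 10 reads (0.210 FPKM) and 15 reads (0.315 FPKM), in the order shCtrl and shSetdb1. Its read ratio of 1.45 had a counting interval of 0.610 to 3.61, so a difference was not detectable at this depth. Car14 shares 445 exonic bases with Aph1a, which had 5097 reads in the shCtrl library and 5312 in the shSetdb1 library, and whether counting used strand is not stated. Car14 lies 541 kb from Setdb1 on chromosome 3. Car4, whose product is held at the membrane by a lipid anchor, had 0 reads in both libraries, which allows a level of up to 0.0815 FPKM (3 reads).

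CAR5B is a mitochondrial isozyme that supplies bicarbonate for metabolism. Car5b (ENSMUSG00000031373, X chromosome, 163976822 to 164027997) had 1952 reads (16.4 FPKM) in the shCtrl library and 2742 reads (23.0 FPKM) in the shSetdb1 library. Its log2 ratio of 0.47 lay just above the upper quartile of all loci, and its read ratio was 1.36 (1.28 to 1.44). It was the second most abundant member in both libraries, after Car6 in shCtrl and after Car9 in shSetdb1. The FPKM of Car6 was 6.88 times that of Car5b in the shCtrl library, and the FPKM of Car9 was 1.64 times that of Car5b in the shSetdb1 library.

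CAR13 is a cytosolic isozyme. Car13 (ENSMUSG00000027555, chromosome 3, 14641727 to 14663002) had 290 reads (6.73 FPKM) in the shCtrl library and 519 reads (12.1 FPKM) in the shSetdb1 library. Its log2 ratio was 0.75 and its read ratio 1.73 (1.496 to 2.005). Car13 shares a stretch of 259 kb with Car1, Car3 and Car2, which lie side by side on chromosome 3. Of these neighbours, Car1 and Car2 had 0 reads in both libraries and Car3 had 1 read in the shCtrl library and 0 in the shSetdb1 library. Car13 was thus the 1 gene of this cluster with more than 1 read. For Car2, the fast cytosolic enzyme of many tissues, 0 reads allow a level of up to 0.0661 FPKM.

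The remaining cytosolic member, Car7, known mainly from the brain, had 40 reads (0.587 FPKM) in the shCtrl library and 38 reads (0.558 FPKM) in the shSetdb1 library. Its read ratio was 0.919 (0.574 to 1.47). Car8 encodes a related protein that lacks a zinc-binding residue and has no enzyme activity, and that binds the inositol trisphosphate receptor. It had 0 reads in both libraries, which allows a level of up to 0.0416 FPKM.

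**Figure D2:**
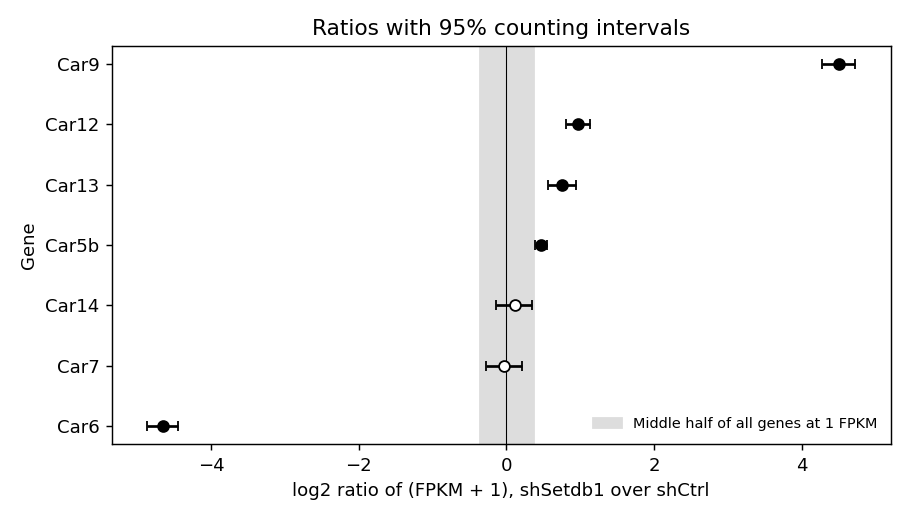
Log2 ratio of (FPKM + 1), shSetdb1 over shCtrl, for the 7 members with reads. Bars are 95% counting intervals, filled points are genes at 1 FPKM or more, and the grey band spans the quartiles of all loci at 1 FPKM. Car9 (4.51) and Car6 (-4.65) lie far outside the band on opposite sides, Car5b, Car13 and Car12 lie above it, and Car7 and Car14 lie within it.

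Added up, the levels of the 10 members were 138 FPKM in the shCtrl library and 79.7 FPKM in the shSetdb1 library, a ratio of 0.576. Without Car6 the sums were 25.4 and 76.1 FPKM, a ratio of 2.997, so the direction of the sum turned on that gene. Car6 made up 81.6% of the sum in the shCtrl library and 4.43% in the shSetdb1 library. Car9 made up 0.503% and 47.3%. By place in the cell, the 4 membrane members together had 1.68 FPKM in the shCtrl library and 40.5 FPKM in the shSetdb1 library, or 1.21% and 50.8% of the sums. The 3 cytosolic members had 7.32 and 12.6 FPKM, or 5.29% and 15.8%. Mitochondrial Car5b took 11.9% and 28.9%. These shares do not depend on how the libraries are scaled to each other.

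**Figure D3:**
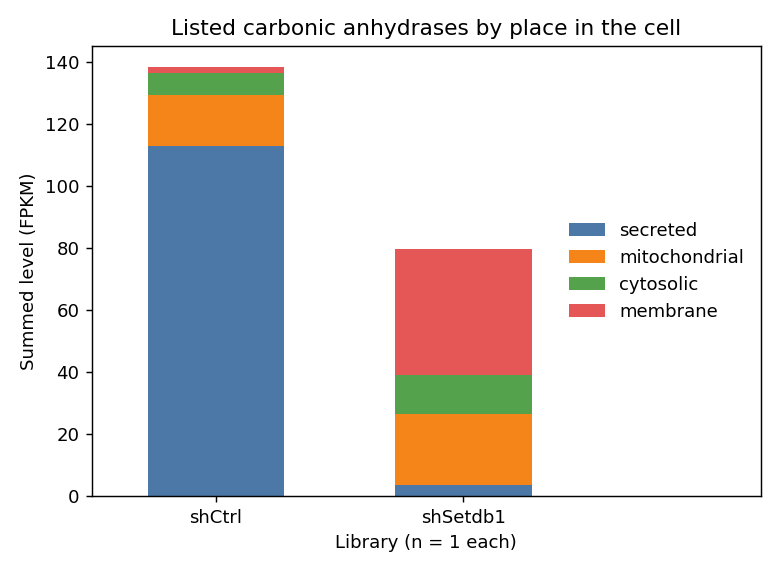
Summed FPKM of the listed members in each library, stacked by the place of the protein in the cell. The secreted share (Car6) fills 81.6% of the shCtrl column and 4.43% of the shSetdb1 column, while the membrane share goes from 1.21% to 50.8%.

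The family genes outside the list were Car1, Car3, Car5a, Car10, Car11 and Car15. Of these 6, only Car11 reached 1 FPKM. Car11, which encodes a relative without enzyme activity, had 136 reads (3.77 FPKM) and 119 reads (3.30 FPKM), in the order shCtrl and shSetdb1, a read ratio of 0.846 (0.656 to 1.09). Car15, a membrane-anchored form, had 26 reads in each library, and its gene shares 1253 exonic bases with Gm20518. Car5a and Car10 had 0 reads in both libraries. Of the receptor phosphatases with a carbonic anhydrase-like domain, Ptprg was at 1.52 and 0.495 FPKM, a log2 ratio of -0.75. Its read ratio was 0.315 (0.250 to 0.395). Ptprg passed the filter through the shCtrl library alone, which fixed its direction. Ptprz1 had 0 reads in both libraries.

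Genes next to the 5 members at 1 FPKM were read from the positions in the table. Tpm2, a tropomyosin gene, lies 982 bases beyond the 3′ end of Car9 on the opposite strand. It had 238 reads (4.37 FPKM) in the shCtrl library and 1004 reads (18.4 FPKM) in the shSetdb1 library, a log2 ratio of 1.86, and whether reads of one gene were counted for the other was not tested. On the other side of Car9, Arhgef39 had a log2 ratio of 0.16. Next to Car6, the glycolytic gene Eno1, 35.4 kb away, had a log2 ratio of 0.28, and the sugar transporter gene Slc2a7, 18.5 kb away, had 0 reads in both libraries. The neighbours of Car5b were Zrsr2 (0.03) and Siah1b (-0.28). Those of Car12 were Usp3 (0.34) and Aph1b (0.23), and those of Car13 were 1810022K09Rik (0.03) and Car1.

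Within 500 kb of Car6, 6 protein-coding genes reached 1 FPKM, with log2 ratios from -1.08 for Slc25a33 to 1.18 for Spsb1 and a median of 0.25. Within 500 kb of Car9, 18 such genes had a median of 0.20, of which 2 were higher by 2-fold or more and 0 were lower by as much. No gene in either window had a ratio as far from 0 as the member in its middle. Car6 and Car9 were picked for their extreme ratios, which nearly fixed this outcome, so nothing is read from it. Around Car5b, Car12 and Car13, 0 of 6, 0 of 8 and 0 of 2 such genes passed 2-fold in either direction. Across all loci at 1 FPKM, 6.81% were higher by 2-fold or more and 4.85% lower by as much. The windows hold too few genes to be told apart from these shares.

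**Figure D4:**
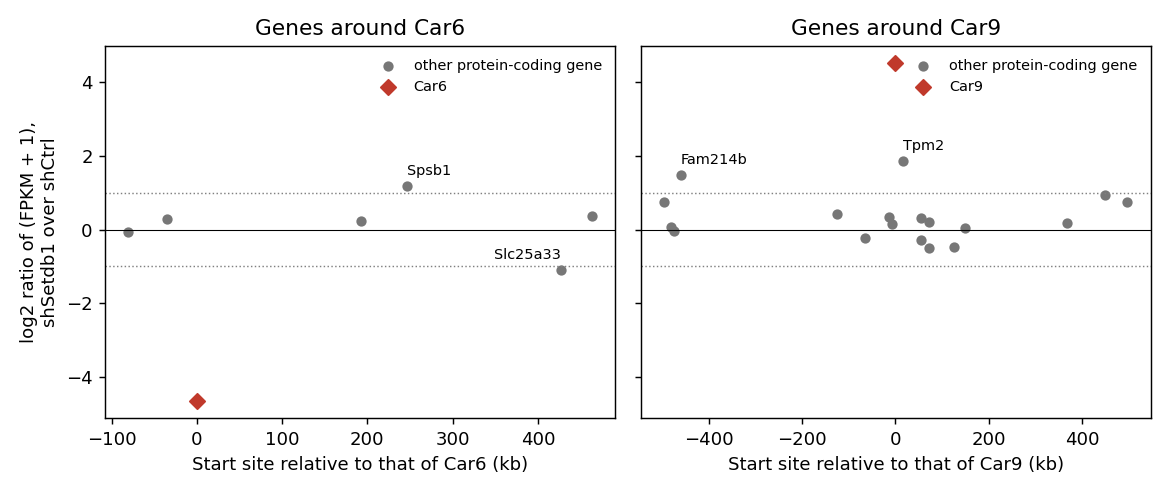
Log2 ratio of (FPKM + 1) of the protein-coding genes at 1 FPKM or more within 500 kb of Car6 (left) and Car9 (right), by the distance of their start sites in kb along the direction of the member, with dotted lines at 2-fold. The members (diamonds) are at -4.65 and 4.51 and were picked for their extreme ratios. Of their neighbours, Tpm2 at 1.86 is the farthest from 0.

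The 3 protein-coding genes whose log2 levels in the 2 libraries were nearest to those of Car9 were Ankrd37, Cnfn and Cxcl1. The distances, over 2 values only, were 0.41, 0.50 and 0.72 log2 units. Ankrd37 had 12 reads in the shCtrl library and 863 in the shSetdb1 library. Cxcl1, a chemokine gene, had 18 and 803 reads. Cnfn had 3 and 455 reads, a ratio of 147 with a counting interval of 49.9 to 714. Nearest to Car6 were Cdsn, Gadd45a and Angptl6, at 0.92, 1.30 and 1.35 log2 units. Cdsn, a gene of the cornified skin layer, went from 73.5 to 6.28 FPKM, Gadd45a, a DNA damage response gene, from 56.0 to 7.05 FPKM, and Angptl6 from 46.2 to 5.16 FPKM.

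Bicarbonate and protons made by carbonic anhydrases are moved across the membrane by other proteins. Of 15 bicarbonate transporter genes, 3 reached 1 FPKM, and 0 of these were past 2-fold in either direction. They were Slc4a2, an anion exchanger (24.2 and 32.4 FPKM, log2 ratio 0.40), Slc4a3 (0.22) and Slc26a6 (0.07). Under 1 FPKM and named after their values were seen, Slc4a8 had 22 and 173 reads, a read ratio of 7.61 (4.87 to 12.45), and Slc4a11 had 86 and 31 reads, a read ratio of 0.349 (0.223 to 0.531). Of 16 genes of proton and lactate export, 7 reached 1 FPKM and their median log2 ratio was 1.21. Of these 7, 4 were higher by 2-fold or more and 0 lower by as much, beside 6.81% and 4.85% of loci at 1 FPKM. The highest was Slc16a3, the lactate exporter MCT4, with 747 reads (7.499 FPKM) in the shCtrl library and 6828 reads (68.5 FPKM) in the shSetdb1 library, a log2 ratio of 3.03. Bsg, the chaperone that carries this transporter to the surface, was at 367 and 1150 FPKM (1.65). The lowest was Slc9a8, a sodium-proton exchanger, at -0.57, and Slc16a1, the transporter MCT1, was at -0.37. Of 8 acid sensor genes, 1 reached 1 FPKM, the acid-sensing channel gene Asic1, at -0.13.

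CAR9 is known as a target of hypoxia-inducible factor, so a list of hypoxia-induced genes without the carbonic anhydrases was set beside it. Of 24 genes found, 21 reached 1 FPKM and all 21 were higher in the shSetdb1 library, with a median log2 ratio of 1.82. Of the 21, 17 were at least 2-fold higher, beside 6.81% of all loci at 1 FPKM. Ankrd37 was highest at 4.45 (0.416 and 29.9 FPKM) and passed the filter through the shSetdb1 library alone. Next were the mitophagy receptor gene Bnip3 (5.87 and 74.0 FPKM, log2 ratio 3.45) and the collagen prolyl hydroxylase gene P4ha2 (4.201 and 51.4 FPKM, 3.33). Vegfa, the angiogenic factor, was lowest at 0.15 (47.8 and 53.3 FPKM). On this scale Car9, at 4.51, was above each of the 21, while by reads Ankrd37 had the larger ratio, 69.6 (39.6 to 135) against 52.4 (36.6 to 77.96) for Car9, with intervals that overlap. Of 8 genes for subunits of the factor, its oxygen sensors and Vhl, 5 reached 1 FPKM, 2 higher and 3 lower. On the FPKM + 1 scale 0 of these passed 2-fold in either direction. The lowest was Hif1a (673 and 418 reads, log2 ratio -0.57) and the highest Vhl, the ubiquitin ligase subunit that marks the factor for degradation (926 and 1881 reads, log2 ratio 0.98). Without a pseudocount the FPKM ratio of Vhl was 2.03. The oxygen sensor genes Egln1 and Egln3 had been placed in the hypoxia-induced list instead. Egln1 was at 27.75 and 119.2 FPKM, a log2 ratio of 2.06, and Egln3 had 0 and 2 reads. The lists were drawn up with earlier results of these data known, so their counts are not independent support.

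**Figure D5:**
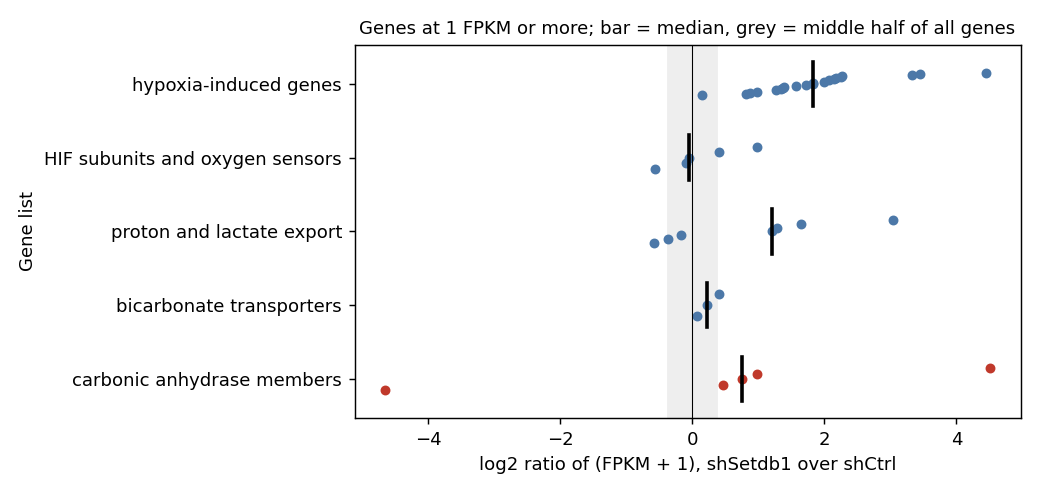
Log2 ratio of (FPKM + 1), shSetdb1 over shCtrl, for genes at 1 FPKM or more, by list, with each list's median as a bar and the quartiles of all loci as a grey band. The hypoxia-induced genes all lie above 0 with a median of 1.82, and the carbonic anhydrases run from -4.65 to 4.51. The list labelled HIF subunits and oxygen sensors also holds Vhl.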

How the data were processed

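RNA sequencing of 2 CT26 libraries, 1 for each group, was analysed. Groups came from the library names in the labels, which match the column names. The authors deposited FPKM values. CASAVA, HISAT2, featureCounts 1.5.0-p3 and the build GRCm38 are named in the submitters' processing notes. The strand setting is not given in the sources used here. Positions of the 16 family genes were the same in GENCODE M21.

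Whole reads were recovered by multiplying each FPKM value the authors deposited by the length of its gene model and dividing by what 1 read is worth. For 100% of the values above 0, in each library, the result was within 0.01 of a whole number, and the same depth of 18731117 reads had been used for both libraries. The main ratios therefore carry the 1.03 ratio of the read totals.

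Log2 ratios used a pseudocount of 1, a filter of 1 FPKM in at least 1 library and a 2-fold limit. With 1 library for each group no p-value was computed. For a symbol with several loci, the one with the highest read total was taken. The limit for 0 reads was 3 reads. Members and lists were chosen with earlier results of these data known. Named genes are Setdb1, the 16 family genes, the highest and lowest gene of each list, the nearest protein-coding gene on each side of each member at the filter, and the 3 genes nearest to Car9 and to Car6 in level. In the blood and endothelial list, 1 marker is not reported here. Other genes were named after their values were seen. The calculations were tested on simulated data. Software was scipy 1.17.1, pandas 2.3.3, numpy 2.4.6 and matplotlib 3.10.9 in Python 3.11.15.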

Additional observations from a re-analysis of the deposited data

How the results depend on the processing

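Alternatives were a pseudocount of 0.1, 4 other scalings (median ratio, upper quartile, sum without the 100 highest genes, own read totals), no filter or a filter at 5 FPKM, and limits of 1.5-fold and 4-fold. Of 100 alternative values, 86 moved by less than the counting error (for counts, by no more than 1.5 times), 14 moved and 0 reversed. With a pseudocount of 0.1, Car6 was at -4.96, Car9 at 5.57 and Ptprg, the 1 receptor phosphatase at the filter, at -1.44, and 2 members in place of 1 were at least 2-fold higher, the second being Car12. At 1.5-fold, 3 members were higher. Without a filter the median was 0.0600 for the members, -0.376 for receptor phosphatases, 0 for bicarbonate transporters, 0 for proton and lactate export and 1.64 for hypoxia-induced genes, since genes with few or no reads were added. At 5 FPKM bicarbonate transporters were at 0.40, with Slc4a2 as the 1 gene left. The summed FPKM ratio of the members was 0.552 under upper-quartile scaling and 0.553 without the 100 highest genes, alternatives added after seeing the data for this sum. The scalings moved the median of all loci at most to -0.0530. No paired analysis was possible because there was 1 library for each condition, so none could be left out either.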
